A study of Mus musculus with 2 samples.

Results

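The 38 genes described here are imprinted genes of the mouse, taken as a list of names by a rule that uses no measured value. All 38 were found in the GENCODE M21 annotation, among 53843 genes on chromosomes 1 to 19 and X. They fall into 18 loci. Open chromatin was mapped with DNase-seq, which reads the cuts of the enzyme DNase I, in 2 libraries of kidney from female B6CASTF1/J mice aged 8 to 10 months, labelled biological replicates 1 and 2 of a single group. B6CASTF1/J is the first-generation cross of C57BL/6J and CAST/EiJ, so each cell carries 1 chromosome set from each strain. The libraries came from separate tissue samples under 1 donor entry, and whether these were separate animals is not stated. Parental alleles were not analysed here, so a region open on 1 parental chromosome and a region open weakly on both cannot be told apart. Whole kidney is a mixture, so few cells with strong opening and many with weak opening cannot be told apart either. Whether CAST/EiJ reads map as well as C57BL/6J reads to the reference was not tested.

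Genomic imprinting is the expression of a gene from the chromosome of 1 parent, set by DNA methylation that the egg or the sperm laid down at imprinting control regions. Imprinted genes lie in clusters, in which a long noncoding RNA or an insulator bound by the protein CTCF often separates genes expressed from opposite parental chromosomes. ZFP57 is a zinc finger protein that binds the methylated hexamer TGCCGC and keeps the mark after fertilisation. Many imprinted genes act in growth before birth and are turned down in adult tissue.

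Open DNA is described by the signal that the authors deposited for each peak, a number that grows with DNase I cuts. Peaks of both libraries that overlapped were joined into a shared region, and a start was called open when a shared region lay within 500 bases of any annotated transcript start. There were 96735 shared regions, with a median signal of 1.04. Depth was alike, at an inferred 120.9 and 119.9 M tags (M, mega). The kidney epithelium markers Pax8, Lrp2, Umod, Slc34a1, Slc12a1 and Slc12a3 had an open start, with signals from 1.21 for Slc12a3 to 6.76 for Umod, and Aqp2 had none. Of 15 markers of other cells 5 had an open start, against 33.6% of all annotated genes and 64.2% of protein-coding genes. These were Tie1, Pecam1, Apob, Alb and Ckm, with signals from 0.292 for Alb to 3.46 for Ckm. The part of such other cells in the results below was not tested.

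The sequences that carry the patterns described below come from 3 loci where open DNA stood at or near a control region and from 4 sites with repeated TGCCGC words. They were read from the GRCm38 (mm10) genome at the positions of shared regions and are given on the strand of the gene. Capitals mark a short word found by search on both strands, and a word is a match of letters only. The first pair lies upstream of H19, a long noncoding RNA gene, at chr7:142580581-142580880 and chr7:142581721-142581980 on the minus strand, in the stretch known to hold the H19-Igf2 imprinting control region. Capitals mark the core of the CTCF motif, called the CTCF word here, which reads CC, any 4 bases, GG, any base, then GGC.
H19 upstream, nearer region: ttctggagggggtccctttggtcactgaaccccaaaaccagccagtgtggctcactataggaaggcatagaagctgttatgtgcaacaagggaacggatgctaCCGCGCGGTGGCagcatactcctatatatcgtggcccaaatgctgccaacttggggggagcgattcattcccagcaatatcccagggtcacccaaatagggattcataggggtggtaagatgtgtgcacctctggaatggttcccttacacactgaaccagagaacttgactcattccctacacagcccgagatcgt
H19 upstream, farther region: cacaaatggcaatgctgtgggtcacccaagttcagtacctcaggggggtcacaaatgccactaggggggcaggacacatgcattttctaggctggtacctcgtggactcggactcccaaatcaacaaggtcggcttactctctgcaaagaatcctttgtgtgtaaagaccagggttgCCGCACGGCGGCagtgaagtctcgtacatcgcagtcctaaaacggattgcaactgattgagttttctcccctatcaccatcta
The second pair lies in the first intron of Peg3 at chr7:6728321-6728620 and chr7:6729481-6729700 on the minus strand, the first of these being 300 bases of a wider region. Capitals mark GCCATNTT, a word bound by the zinc finger protein YY1.
Peg3 first intron, middle region: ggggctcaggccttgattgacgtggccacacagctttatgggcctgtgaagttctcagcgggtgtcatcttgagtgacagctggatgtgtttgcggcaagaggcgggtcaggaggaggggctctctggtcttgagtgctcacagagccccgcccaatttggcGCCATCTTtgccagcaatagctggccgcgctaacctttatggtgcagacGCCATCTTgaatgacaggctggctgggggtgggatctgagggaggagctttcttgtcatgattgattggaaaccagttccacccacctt
Peg3 first intron, region nearest to the start: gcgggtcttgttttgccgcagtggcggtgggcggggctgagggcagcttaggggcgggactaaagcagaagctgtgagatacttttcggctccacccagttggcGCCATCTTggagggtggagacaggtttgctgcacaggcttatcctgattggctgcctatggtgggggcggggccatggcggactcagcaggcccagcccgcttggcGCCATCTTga
The region just before the start of Kcnq1ot1, the long antisense RNA of the Kcnq1 locus, lies at chr7:143296581-143296820 on the minus strand. Capitals mark CCAAT, the word bound by NF-Y, which was added to the search after the regions had been seen.
Kcnq1ot1 start: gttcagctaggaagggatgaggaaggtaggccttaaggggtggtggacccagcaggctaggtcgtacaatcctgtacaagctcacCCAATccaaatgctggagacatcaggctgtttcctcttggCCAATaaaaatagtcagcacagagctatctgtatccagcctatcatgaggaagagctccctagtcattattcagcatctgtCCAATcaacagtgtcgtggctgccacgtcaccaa
The remaining regions hold repeated ZFP57 words, in capitals as TGCCGC or, on the opposite strand, GCGGCA. Stretches annotated as untranslated were left out of the last 3. They lie in Peg13 at chr15:72809921-72810140 on the minus strand, at the start of Snrpn at chr7:60005112-60005240 on the minus strand, at the internal start of Inpp5f at chr7:128688241-128688488 on the plus strand, and before the start of Mcts2 at chr2:152686801-152687034 on the plus strand.
Peg13: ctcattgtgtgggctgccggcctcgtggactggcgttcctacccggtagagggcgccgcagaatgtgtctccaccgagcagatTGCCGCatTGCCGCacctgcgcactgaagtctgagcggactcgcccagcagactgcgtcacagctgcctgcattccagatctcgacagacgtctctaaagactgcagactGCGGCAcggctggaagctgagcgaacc
Snrpn start: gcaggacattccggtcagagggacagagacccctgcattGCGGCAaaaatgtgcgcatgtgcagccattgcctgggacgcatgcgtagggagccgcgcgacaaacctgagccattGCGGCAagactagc
Inpp5f internal start: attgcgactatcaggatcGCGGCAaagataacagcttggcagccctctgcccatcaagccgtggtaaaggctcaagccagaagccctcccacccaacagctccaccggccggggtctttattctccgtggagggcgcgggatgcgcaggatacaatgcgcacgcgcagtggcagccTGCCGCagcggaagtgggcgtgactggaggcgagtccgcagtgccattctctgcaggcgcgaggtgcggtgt
Mcts2 start: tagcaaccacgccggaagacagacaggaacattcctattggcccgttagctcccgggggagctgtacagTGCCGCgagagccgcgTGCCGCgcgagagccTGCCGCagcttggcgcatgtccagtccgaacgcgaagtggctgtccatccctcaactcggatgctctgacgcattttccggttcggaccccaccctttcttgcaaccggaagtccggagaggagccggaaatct

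The first question was how many imprinted genes are open at a start in adult kidney. An open start was found for 27 of the 38 genes, against 33.6% of all annotated genes. Genes of all types include many that are silent everywhere, so like types were compared. Of the 31 protein-coding genes 24 were open, against 64.2% of protein-coding genes. Of the 7 noncoding genes 3 were open (Kcnq1ot1, Airn and Peg13), against 27.3% of lincRNA, antisense, sense intronic and processed transcript genes. A base listed at a false discovery rate of 0.05 or less near a start in both libraries was present for 28 of 38, against 34.5%. By type these were 25 of 31 protein-coding genes, against 65.2%, and 3 of 7 noncoding genes, against 28.8%. At least 1 shared region within 10 kb of a start was present for 34 of 38, against 60.0%. By type these were 28 of 31, against 78.4%, and 6 of 7, against 65.2%. The exceptions were Dlk1, Meg3, Nap1l5 and Rasgrf1.

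Imprinted starts that were open tended to be weak ones beside all genes and beside protein-coding genes, but not among the 3 noncoding genes. The strongest region at a start had a median signal of 3.15 over the 27 genes and 4.03 over all genes with an open start, and 8 of the 27 lay above the latter. Among protein-coding genes the medians were 2.80 and 4.75. For noncoding genes the order was the other way, at 3.80 for the 3 imprinted ones and 2.08 for all. The order of the first 2 medians turned when starts were given 2000 bases on each side, at 3.69 and 3.58. Footprints, short stretches that were cut less than their surroundings, were found in both libraries at 25 of the 27, against 90.2% of all genes with an open start. Protein-coding genes made up 22 of 24, against 93.1%, and noncoding genes 3 of 3, against 81.7%. The exceptions were Peg3 and Usp29, which share 1 start region. Genes known to be expressed from the paternal chromosome were open in 13 of 20 cases, with a median of 1.32. Those known as maternal were open in 12 of 16, with a median of 3.24. The maternal genes that were not open, H19, Meg3, Rian and Mirg, are noncoding, and the paternal genes that were not open are protein-coding. The open share was 33.6% of all annotated genes and 64.2% of protein-coding genes, and both sets mix coding and noncoding genes. Several pairs share a region, so these genes are not independent. The difference between the paternal and maternal sets was not tested.

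**Figure D1:**
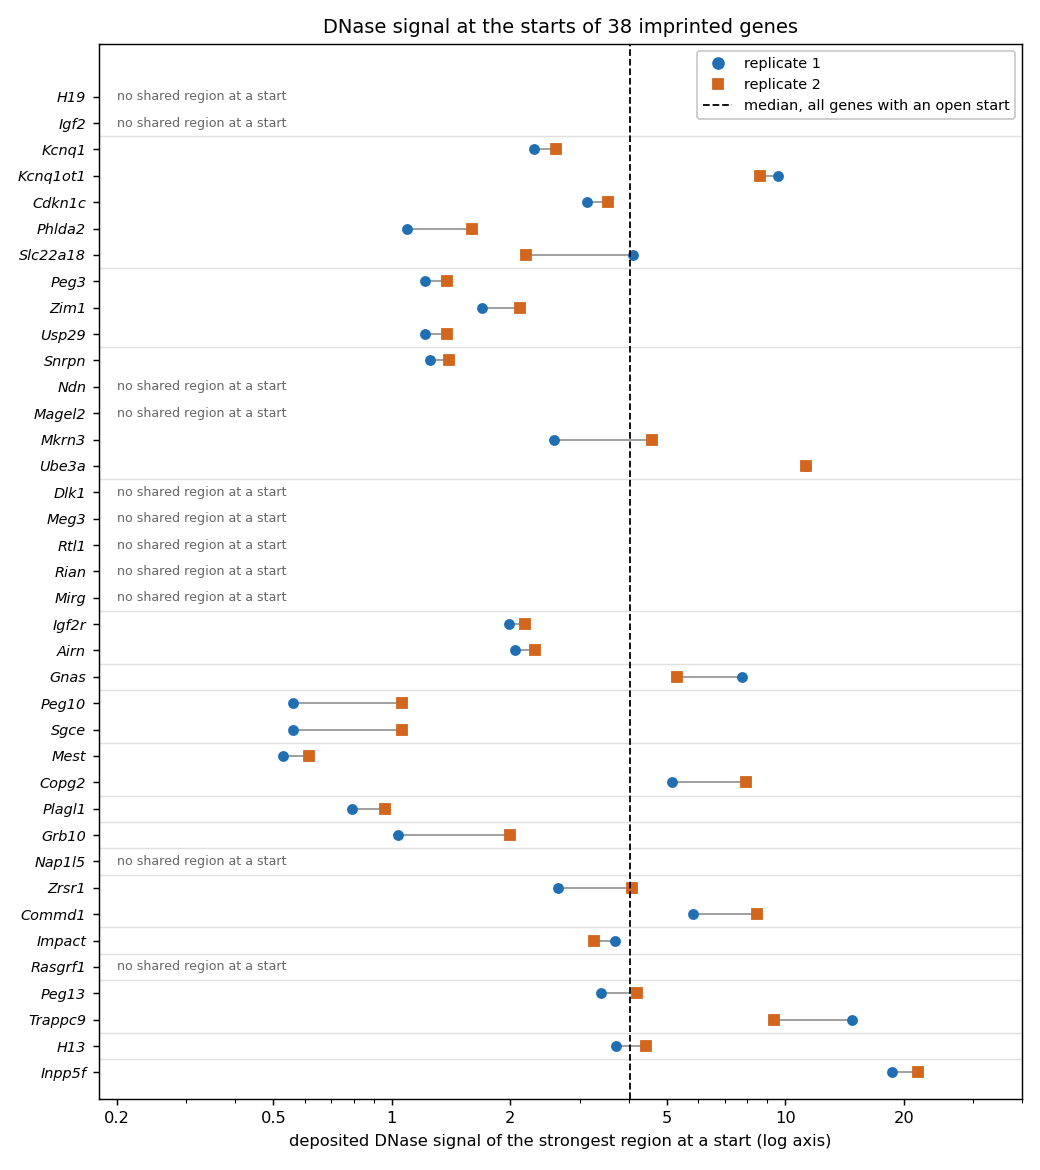
Deposited DNase signal of the strongest shared region at a start of each of the 38 imprinted genes, in replicate 1 (circles) and replicate 2 (squares) on a log axis, grouped by locus. The dashed line is the median of 4.03 over all genes with an open start. Inpp5f, Trappc9 and Ube3a lie farthest to the right, and 11 genes have no shared region at a start.

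The 3 strongest starts belonged to genes whose imprinting is known to be partial or limited to certain transcripts or tissues. Inpp5f, an inositol phosphatase gene, had signals of 18.7 and 21.7 in replicates 1 and 2 (mean 20.2 ± 2.12, SD, n = 2). That is the 98.6th percentile among genes with an open start. Trappc9, which encodes a subunit of a vesicle tethering complex, had 14.7 and 9.36. Ube3a, a ubiquitin ligase gene silenced on the paternal chromosome in neurons, had 11.2 and 11.3 (mean 11.3 ± 0.0255, SD, n = 2). The libraries nearly coincided at Ube3a and were further apart at Trappc9. Commd1, a copper homeostasis gene, had 5.83 and 8.47. Copg2, a subunit of the COPI vesicle coat, had 5.13 and 7.93. At both, replicate 2 was the higher.

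The 11 genes with no open start were H19, Igf2, Ndn, Magel2, Dlk1, Meg3, Rtl1, Rian, Mirg, Nap1l5 and Rasgrf1. For 8 of them no base near a start was listed at the false discovery limit in either library. The other 3 had a weak peak in 1 library only. Igf2, the fetal growth factor, had a peak of 0.446 in replicate 1. Meg3, a noncoding RNA, had a peak of 0.232 in replicate 1. Nap1l5, a retrogene in an intron of Herc3, had a peak of 0.550 in replicate 2. These calls rest on the rule that both libraries must hold the peak, and they change when either library is read alone.

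At the H19-Igf2 locus neither gene had an open start, and the shared regions within 10 kb of their starts lay upstream of each. The span of 91.29 kb over both genes held 5 shared regions, and those beyond 10 kb of a start are not described. H19 is a maternally expressed noncoding RNA, Igf2 is expressed from the paternal chromosome, and CTCF at the control region between them is known to block Igf2 from shared enhancers on the maternal side. The nearer region upstream of H19, 2438 bases from the start, had signals of 0.413 and 0.850 in replicates 1 and 2. The farther one, 3578 bases away, had 0.273 and 0.567. Each held 1 CTCF word, and a footprint of both libraries touched the word in the nearer region only. A further peak, 2018 bases upstream, was called in replicate 2 alone at 0.675 and also held 1 CTCF word. These signals are below the median of all shared regions, and replicate 2 was the higher in each. Upstream of Igf2, the region 5405 bases away had 0.463 and 1.11, and the region 8945 bases away had 0.628 and 1.18. Neither of these held a CTCF word.

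At the Kcnq1 locus, by contrast, all 5 genes had an open start, with 24 shared regions within 10 kb of their starts. Over its span of 396.8 kb it held 8.82 shared regions per 100 kb, against 3.67 over the genome. The H19-Igf2 span held 5.48 per 100 kb, and some other loci were denser than Kcnq1, up to 17.9 at H13. Among the 24, the strongest stood at Kcnq1ot1, the paternally expressed antisense RNA that silences the neighbouring genes. The signal was 9.57 in replicate 1 and 8.60 in replicate 2 (mean 9.09 ± 0.686, SD, n = 2). The start of Kcnq1 itself, a potassium channel gene in which Kcnq1ot1 is nested, had 2.30 and 2.62. The nested start was thus the stronger in both libraries, and the host to nested ratio was 0.240 and 0.304. The 240 bases at Kcnq1ot1 held 3 CCAAT words, shown in the sequence above and all touched by a footprint of both libraries. Shared footprints covered 151 of these 240 bases, so a word here was likely to be touched wherever it lay. Near imprinted starts as a whole 9 of 45 CCAAT words (20%) were touched, these 3 included, against 13.5% in all shared regions. At least 3 such words were found in 1.52% of all shared regions and in 1.75% of the 114 regions near imprinted starts. CTCF and ZFP57 words were not among these letters.

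Cdkn1c, which encodes the cell cycle inhibitor p57, had 3.13 and 3.54 at its start. Its upstream regions held CTCF words and were over 2-fold higher in replicate 2, at 0.785 and 2.24 for the region 2903 bases away and at 1.36 and 3.16 for the region 5351 bases away. Slc22a18, an organic cation transporter gene, had 4.11 and 2.19 at its start and 4.55 and 3.74 at an exonic region 880 bases from a start. Replicate 1 was the higher at both. A region in its intron, 5500 bases from the start and with a CTCF word, had 0.876 and 2.00. Phlda2, a gene that restrains placental growth, had 1.09 and 1.60 at its start. Of the regions around Phlda2, the strongest on the downstream side had 4.20 and 2.38 and the strongest on the upstream side 2.96 and 4.99, both above the start in each library. Others were near the level of the start, such as an upstream region with 1.40 and 1.14.

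At the Peg3 locus all 3 genes had an open start, and the strongest regions near the starts lay inside Peg3. Peg3 encodes a zinc finger protein of the paternal chromosome, and its first exon and intron hold the imprinting control region. The start region, shared with the divergent gene Usp29, had signals of 1.22 and 1.38 and no shared footprint. The first intron held 3 regions. The one 719 bases from the start had 8.68 and 7.20, the one 1519 bases away had 6.84 and 3.60, and the one 2419 bases away had 3.48 and 2.48. All were above the start region in both libraries, and replicate 1 was the higher in each.

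The intronic regions of Peg3 held a repetition of letters that was rare when counted over whole regions. GCCATNTT occurred 2, 4 and 4 times in the regions 719, 1519 and 2419 bases from the start. Over all shared regions, 4.47% held the word at least once, 0.176% at least 2 times and 0.00414% at least 4 times. The last share is 4 regions of 96735, of which 2 were these. Both of these are 580 bases wide, and a wider region can hold more words. In windows of equal length, the central 200 bases, at least 2 words stood in 0.110% of all shared regions. None of the 114 regions near imprinted starts had as many there. Shared footprints numbered 7, 10 and 1 in the 3 regions. All 10 words lay on the strand of the gene, and a footprint of both libraries touched 5 of them. Of all 13 such words near imprinted starts these 5 (38.5%) were touched, against 24.6% of such words in all shared regions. Near imprinted starts as a whole the word was about as frequent as elsewhere, in 6 of 114 regions (5.26%). Zim1, a zinc finger gene expressed from the maternal chromosome, had 1.69 and 2.12 at its start.

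**Figure D2:**
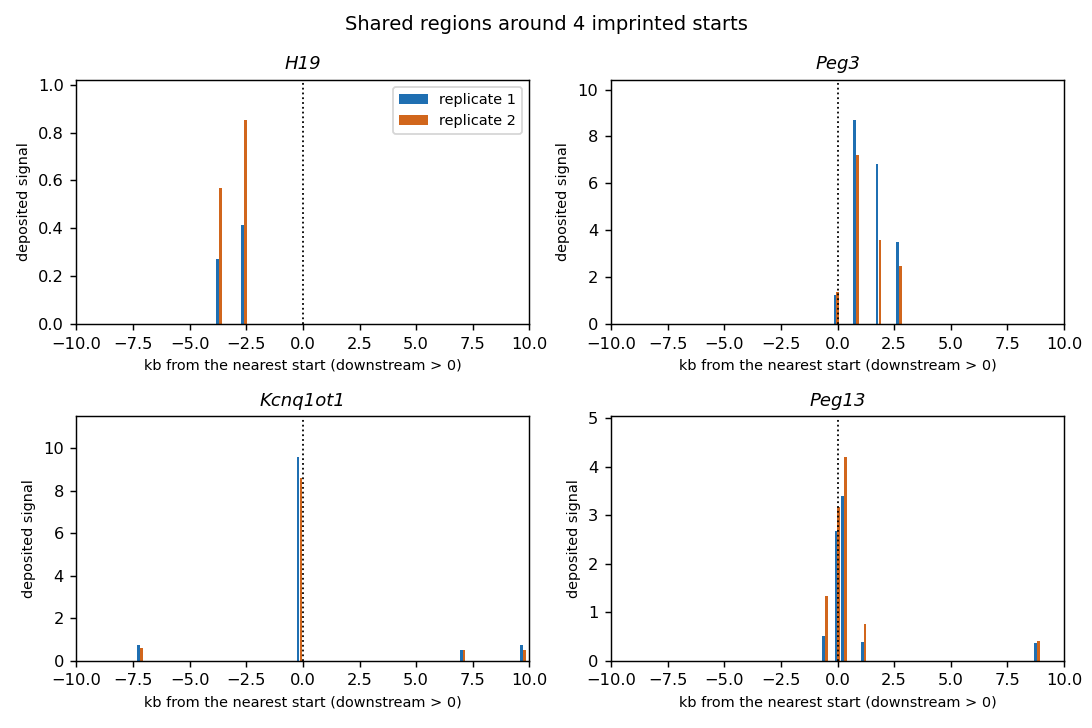
Deposited signal of shared regions within 10 kb of the starts of H19, Peg3, Kcnq1ot1 and Peg13, placed by distance in kb from the nearest start, with replicate 1 and replicate 2 as paired bars of fixed width that do not show the width of a region. Each panel has its own signal axis. At H19 the regions lie upstream, at Peg3 the high bars lie downstream of the start, and at Kcnq1ot1 a single high pair stands at the start.

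The Snrpn locus spans 3191 kb and was thinly covered, with 0.909 shared regions per 100 kb. Snrpn, a splicing protein gene at the control region of the locus, had 1.25 and 1.40 at its start (mean 1.32 ± 0.108, SD, n = 2). The 129 printed bases there hold 2 TGCCGC words, of which 1 was touched by a footprint of both libraries. Mkrn3, which encodes a makorin RING finger protein and has no intron, had 2.59 and 4.59. Its neighbours Ndn and Magel2 had no open start. The region nearest to Ndn lay in its exon with 0.256 and 0.450. The region nearest to Magel2 lay 1050 bases upstream with 0.232 and 0.550, and held a CTCF word. All of these were weaker than Mkrn3 in both libraries.

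At the Dlk1-Meg3 locus none of the 5 genes had an open start. Dlk1 encodes a Notch-related membrane protein, Rtl1 derives from a retrotransposon, and Rian and Mirg are hosts of small RNAs. The span of 296.6 kb held 1 shared region, in an intron of Rtl1, with 0.256 and 0.350. A second, past the end of Mirg, had 0.223 and 0.350. The region nearest to Dlk1 lay 14.8 kb upstream with 0.653 and 1.77 and held a CTCF word. Rasgrf1, a guanine exchange factor gene elsewhere in the genome, also had no region within 10 kb, and the nearest lay inside the gene 30.6 kb from a start with 0.174 and 0.308.

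Igf2r and Airn were open to the same degree. Igf2r encodes the receptor that clears IGF2, and Airn is the antisense RNA that starts in its intron and silences it on the paternal chromosome. The start of Igf2r had 1.98 and 2.18 and that of Airn had 2.05 and 2.31. Their ratio was 0.968 and 0.942, so the starts differed by less than the libraries did. A region inside Airn, 5211 bases from a start, had 2.31 and 3.39 and held a CTCF word.

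Gnas encodes the stimulatory G protein alpha subunit and has alternative first exons with different imprinting. The main start had signals of 1.79 and 2.21. The exon 1A start, within a control region, had 0.794 and 1.16. The Nesp start had 0.248 and 0.525, and at the XL start a single peak was called in replicate 2 alone, at 0.575. The main, exon 1A and Nesp starts stood in this order in both libraries. The strongest region within 10 kb of its starts, with 7.76 and 5.30, stood 250 bases from a minor start inside the gene and had no CpG in its central 200 bases.

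Other nested pairs differed in which start was the stronger. Peg13, a noncoding RNA nested in Trappc9, had 3.40 and 4.19, and the host start was 4.34 and 2.23 times as strong. Zrsr1, a retrogene in Commd1, had 2.65 and 2.78 at the start of its own first transcript, and the host was 2.20 and 3.05 times as strong. A second Zrsr1 start shared with Commd1 had 2.64 and 4.07. In H13, a signal peptide peptidase gene, the nested retrogene Mcts2 had 7.46 and 7.00 and the host 3.72 and 4.43, a ratio of 0.499 and 0.632. Mcts2 thus joins Kcnq1ot1 as a nested start well above its host in both libraries. Airn was also above Igf2r in both, but by little, at a host to nested ratio of 0.968 and 0.942.

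Mest, a hydrolase gene expressed in the embryo, had 0.529 and 0.617, the lowest of the 27 genes when the strongest start of each is compared. Its neighbour Copg2 was 9.70 and 12.85 times as strong. The internal start of Inpp5f, which makes the imprinted short transcript, had 0.521 and 0.892, and the first start was 35.8 and 24.3 times as strong. For Nap1l5, with no shared region, the host Herc3 had 2.55 and 2.99. The start of Mest was thus weaker than that of Copg2, and the internal start of Inpp5f weaker than its first start, in both libraries.

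**Figure D3:**
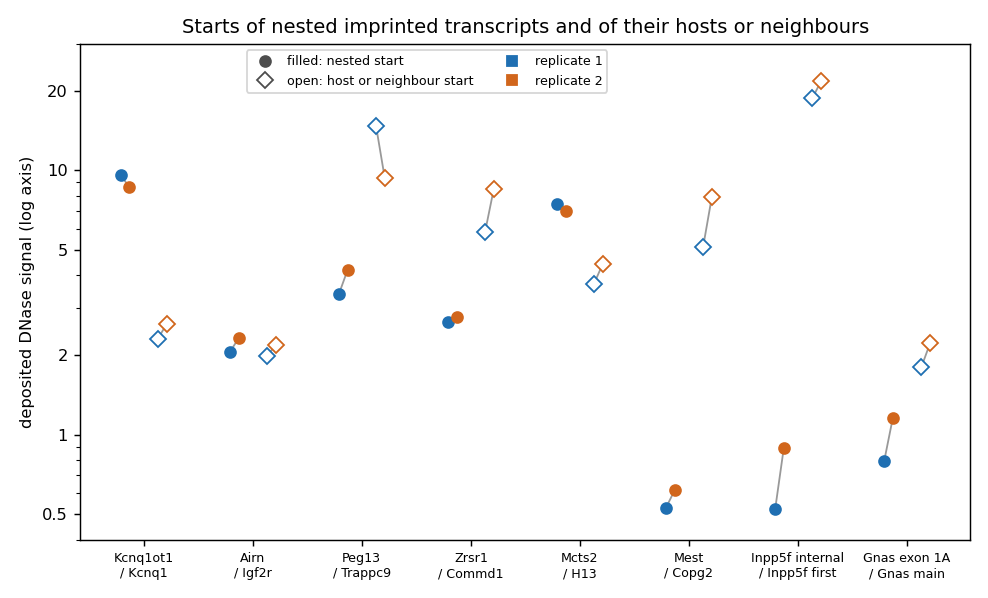
Deposited signal on a log axis at 8 nested or internal imprinted starts (filled circles) and at the start of the host or neighbour (open diamonds), in replicate 1 and replicate 2. Kcnq1ot1 and Mcts2 lie above their hosts, Airn and Igf2r overlap, and the other 5 nested starts lie below in both libraries.

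Several weak starts had stronger open DNA nearby. Peg10 and Sgce, a retrotransposon-derived gene and a sarcoglycan gene that share a start region, had 0.562 and 1.06 there. A region in the intron of Peg10, 1775 bases from the start, had 4.85 and 6.28. Plagl1, a zinc finger regulator of growth, had 0.794 and 0.959 at its start and 0.901 and 1.41 at a region 3191 bases upstream. Grb10, an adaptor that dampens insulin signalling, had 11 shared regions within 10 kb of its starts. Its strongest start had 1.03 and 1.99 and an upstream start had 0.513 and 1.05. The region 4582 bases from a start had 2.46 and 2.25.

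Impact, a regulator of the translation kinase GCN2, had 3.68 and 3.26 at its strongest start. A region in its intron, near the known control region, had 6.24 and 4.29, with 11 shared footprints and 3 TGCCGC words. In H13 a region 5002 bases from a start had 4.26 and 8.07 and held 2 CTCF words, which overlap each other on opposite strands. Among the regions within 10 kb that stood at no start of these genes, the strongest lay 6237 bases upstream of Trappc9, with 22.1 and 17.3. Near Commd1 the exonic region of the neighbour Cct4 had 5.52 and 4.41.

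In all, 114 shared regions lay within 10 kb of the starts. Of these, 45 stood at a start of a listed gene, with a median signal of 2.00, and 69 elsewhere, with a median of 1.24. By annotation 44 touched an exon, 47 an intron and 23 neither. A shared footprint was present in 82, and there were 233 in total. Neither these counts nor those by annotation were made over all shared regions, so no difference from other open regions is shown by them. The median number of CpG in the central 200 bases was 12 at the starts, 4 elsewhere and 3 over all shared regions. The regions at these starts thus held more CpG than the other 2 sets. Start regions of all genes were not measured apart, so this is not shown to be particular to imprinted starts.

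TGCCGC words were more frequent in regions near imprinted starts than in all shared regions. They occurred in 23 of 114 regions (20.2%), against 8.44% of all shared regions. The share was 26.7% in the 45 regions at a start and 15.9% in the 69 elsewhere. Start regions of other genes were not counted apart. In windows of equal length, the central 200 bases, the shares were 16.7% and 6.30%. At least 3 words were present in 4 regions (3.51%), against 0.184%. These 4 were the ones in Peg13, in the intron of Impact, at the internal start of Inpp5f and at Mcts2. CpG content was also higher at the starts, as given above, and its part in these shares was not tested. A footprint of both libraries touched 6 of the 36 words (16.7%), against 20.6% of such words in all shared regions. The word was thus frequent, and a footprint over it was not more frequent than elsewhere.

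CTCF words occurred in 23 of 114 regions (20.2%), against 14.2%. A footprint of both libraries touched 17 of the 26 words (65.4%), against 54.3% over the genome. Overlapping CTCF words on opposite strands, as in H13 and upstream of Cdkn1c, were counted separately in both sets. CCAAT occurred in 29 of 114 regions (25.4%), against 28.8%. Of these, 4 TGCCGC words and 3 CTCF words overlapped a word of another kind.

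The libraries differed at these loci, and mostly at regions with a CTCF word. Replicate 2 was the higher in 75 of 114 regions (65.8%), against 49.4% of all shared regions. On the log2 scale the median difference, replicate 2 minus replicate 1, was 0.21, against -0.01, with an SD of 0.63 over all regions. In 16 regions (14.0%) the signals were over 2-fold apart, against 11.9% of all shared regions. Of these, 15 were higher in replicate 2, and 11 of the 16 held a CTCF word. The exception was an intronic region of Grb10 with 1.74 and 0.559. Besides regions given above, the 15 included one 7392 bases upstream of Impact with 1.33 and 4.10, one in an intron of Inpp5f with 1.68 and 4.13, and one upstream of Trappc9 with 1.81 and 4.20. All 3 of these held a CTCF word. The remaining ones lay in H13 (1.07 and 2.48), in Grb10 (1.41 and 2.83) and beside the start of Peg13 (0.513 and 1.33), without the word.

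Split by the word, a division made after the values had been seen, 23 regions with a CTCF word had a median log2 ratio of 0.92, and 22 of the 23 were higher in replicate 2. The 91 regions without it had a median of 0.09. Over 2-fold higher in replicate 2 were 11 of the 23 (47.8%) and 4 of the 91 (4.40%). Over all shared regions these shares were 20.5% with the word and 5.50% without it, and 10510 of 13759 regions with the word were higher in replicate 2. The median of 0.92 fell to 0.55 with the shorter peak lists and 0.59 with peaks at or above the median signal. The same direction was found over the genome. The 13759 shared regions with the word had a median log2 ratio of 0.45 and the 82976 without it -0.07. More than 500 bases from any start, the medians were 0.64 and -0.14, and 28.2% and 6.43% were over 2-fold higher in replicate 2. The difference between the libraries was thus found over the genome and is not particular to imprinted loci. Signals of the H19 and Cdkn1c upstream regions, which hold the word, carry this difference.

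**Figure D4:**
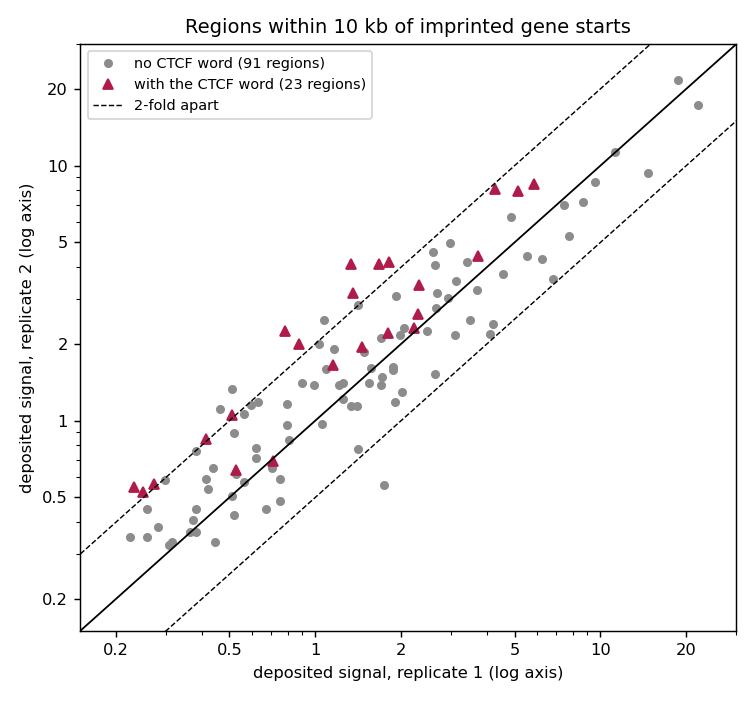
Deposited signal of the 114 shared regions in replicate 2 against replicate 1, both on log axes, with the 23 regions that hold a CTCF word as triangles and the other 91 as circles. The solid line marks equal signal and the dashed lines a 2-fold difference. Of the triangles 11 lie above the upper dashed line and none below the lower one.

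Other imprinted genes outside the 38 had an open start in 19 of 31 cases, with a median of 2.00. For this list and the one below, the share over all annotated genes was 33.6%, and over protein-coding genes 64.2%. This list of other imprinted genes was not split by gene type. The 4 highest were Nap1l4 (16.8 and 18.0), Tssc4 (19.3 and 12.2), Mcts2 (7.46 and 7.00) and Blcap (3.01 and 6.63). Of 12 genes known to maintain imprints 9 were open, with a median of 4.17. Dnmt1, the maintenance DNA methyltransferase, had 8.14 and 8.80, and Setdb1, a histone methyltransferase, had 5.61 and 7.72. Uhrf1, which guides DNMT1, had 5.39 and 7.69, and Trim28, the corepressor of ZFP57, had 3.82 and 7.31. Ctcfl, Dnmt3l and Dppa3 were not open.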

How the data were processed

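DNase-seq was analysed in 2 kidney libraries of 1 group. Per the file headers of the accompanying list, the authors made each file from the filtered alignments of a single library on mm10, without pooling. For the peak, cut rate and footprint callers, names and versions are not stated in these sources. Peaks carry a signal deposited by the authors, and 100% of these values were whole multiples of 1 step per library (tolerance 0.05 steps). A step taken as 1 tag gives the inferred depth. The deposited false discovery rate is a q-value listed for runs of bases up to 0.05, and the footprint files carry a constant p-value or q-value level of 0.01, so footprints have no value per site.

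The longer peak list was used, with 137060 and 124976 peaks on chromosomes 1 to 19 and X. Peaks overlapping by at least 1 base in both libraries were joined, with the highest signal of each library. Genes and starts came from GENCODE M21 and sequence from GRCm38, in which 58928 of 58968 annotated start codons read ATG. Footprints of both libraries counted as shared from 1 common base on. Scripts used Python 3.11.15, pandas 2.3.3 and numpy 2.4.6, and the overlap code was checked on simulated intervals. With 1 group of 2 libraries no test across samples was made. Percentages over all genes or regions stand beside the main counts, but not beside every count. P-values between replicates would measure only their spread, which may be technical. The genes, lists and words were chosen with earlier results of these data known. All 38 genes are reported, and 2 kidney markers are not reported here. Regions named are the strongest at each start, the strongest 3 of a locus and those over 2-fold apart, and of the other lists the 4 highest genes. Alternatives varied the start window, peak list, peak strength, overlap, reach, starts used and libraries used.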

Additional observations from a re-analysis of the deposited data

How the results depend on the processing

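The number of genes with an open start stayed between 22 and 30 of 38 under every alternative run, around 27. Over all annotated genes the open share ran from 28.8% with peaks at or above the median signal to 40.7% with 2000 bases on each side. With only the first base of each gene record as a start, Grb10, Kcnq1, Mest, Plagl1 and Snrpn were lost, and with 2000 bases on each side Magel2, Mirg and Ndn were gained. Phlda2 was lost with the shorter peak lists, Mest, Peg10 and Sgce with peaks at or above the median signal, and Copg2 with 50% overlap. Single libraries gave 28 to 29 genes. Shared regions near the starts fell from 114 to 73 with peaks at or above the median signal and to 69 with a reach of 2 kb, and rose to 225 with a reach of 50 kb. Single libraries gave 143 to 157. The median signal of open starts was 2.46 with 100 bases on each side, 3.69 with 2000 bases, 3.34 with peaks at or above the median signal, 2.80 with 50% overlap, 2.93 with the first base only, and 2.30 to 2.46 in single libraries. The SD of this median between libraries was 0.117. The cause of these shifts was not tested, beyond the smaller or larger set of genes and regions that each setting leaves. Genes with a shared footprint numbered 19 to 27, and the median log2 ratio 0.17 to 0.24. Chosen after seeing the data, 3 alternatives for regions with a CTCF word gave medians of 0.55 to 0.98. No paired analysis was possible because there is 1 group. A missing peak does not show that DNA was closed, and the effect of depth was not tested.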
